A study of Rattus norvegicus with 9 samples.

Results

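The genes described here are 6 genes of glucose sensing in the beta cell, chosen by symbol: the glucose transporters Slc2a2 (GLUT2) and Slc2a1 (GLUT1), Mlxipl, which encodes the glucose-responsive transcription factor ChREBP, and the ChREBP targets Txnip, Arrdc4 and Pklr. Of these 6, 5 had a row among the 20645 genes of the table, and Mlxipl was not analysed here. RNA was sequenced from INS-1E cells, a clonal insulin-secreting line derived from a rat insulinoma, so the groups differ in treatment and not in animal. BSA cells received fatty-acid-free albumin, PA cells received palmitic acid (0.5 mM, per the study's methods), and PA + C3G cells received palmitic acid together with the anthocyanin cyanidin-3-O-glucoside (50 µM), in every case for 24 h. Each group had 3 libraries. The study's methods speak of biological replicates for its experiments in general, but neither they nor the labels say whether the 3 replicates of a group were grown separately, so p-values measure the spread between these libraries.

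Glucose enters the beta cell through facilitative transporters and is metabolised there, and the resulting flux couples the glucose level to insulin secretion. GLUT2 is the high-capacity transporter of the rodent beta cell and of the liver, and GLUT1 is a high-affinity transporter found in most cells. ChREBP, with its partner Mlx, is activated by glucose metabolites and binds carbohydrate response elements, which are paired E-box-like half-sites. Txnip and Arrdc4 are alpha-arrestins that reduce glucose uptake, and Txnip also binds thioredoxin and has been linked to beta cell death. Pklr encodes the liver and red cell pyruvate kinase, a classical ChREBP target, while Pkm encodes the pyruvate kinase used by most other cells.

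Depth ran from 45559993 to 66730721 estimated counts per library, and all 5 genes passed the filter of a mean of at least 1 FPKM (fragments counted per unit of transcript length and of library size). All 10 beta cell markers were present, and their summed level was 49500 to 50100 FPKM in BSA, 22900 to 23300 in PA and 47300 to 52800 in PA + C3G libraries. The hormone genes Ins1 (26650, 13740 and 32000 FPKM on average in BSA, PA and PA + C3G) and Ins2 (13780, 1871 and 7008 FPKM) made up most of that sum. Pdx1 (253.8, 163.3 and 253.3 FPKM), Mafa (380.8, 211.5 and 312.5) and Pcsk1 (20.2, 6.45 and 12.5) also averaged lower in PA than in BSA. So did Slc30a8 (890, 717 and 766 FPKM), Iapp (3339, 2489 and 3561) and Chga (4213, 3678 and 5232). Neurod1 averaged 149.9, 142.7 and 150.6 FPKM and Nkx6-1 50.0, 52.1 and 76.0 FPKM. Of the alpha cell markers, Gcg averaged 20.5, 3.57 and 13.3 FPKM in the same order of groups, and the delta, acinar, fibroblast, immune and endothelial markers with a row were each below 1 FPKM in every library. Sox9, a duct marker, averaged 2.65, 5.01 and 3.53 FPKM while Krt19 did not exceed 0.177 FPKM. The part of this shift in the hormone-dominated sum in the results below was not tested, and in such bulk RNA a smaller share of expressing cells and less RNA per cell cannot be told apart.

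Promoter windows show where ChREBP-type letters lie near these genes. The windows come from RefSeq on the build GRCr8 and run from 250 bases before to 50 bases after the annotated start. They were available for 4 of the 6 genes, and 3 are shown because they hold, respectively, a spaced pair, a single E-box and no match. Capitals mark each half-site, CACGNG or its complement CNCGTG, and a pair means half-sites with 5 bases between them. The palindrome CACGTG (the E-box) is both forms at once.
Pklr (chr2:176841014-176841313, plus strand): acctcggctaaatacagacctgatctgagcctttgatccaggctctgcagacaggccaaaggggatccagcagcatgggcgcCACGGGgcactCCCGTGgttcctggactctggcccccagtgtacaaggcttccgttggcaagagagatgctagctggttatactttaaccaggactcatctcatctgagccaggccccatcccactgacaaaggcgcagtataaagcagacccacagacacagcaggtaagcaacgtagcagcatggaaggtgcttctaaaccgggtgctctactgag
Arrdc4 (chr1:131793376-131793675, minus strand): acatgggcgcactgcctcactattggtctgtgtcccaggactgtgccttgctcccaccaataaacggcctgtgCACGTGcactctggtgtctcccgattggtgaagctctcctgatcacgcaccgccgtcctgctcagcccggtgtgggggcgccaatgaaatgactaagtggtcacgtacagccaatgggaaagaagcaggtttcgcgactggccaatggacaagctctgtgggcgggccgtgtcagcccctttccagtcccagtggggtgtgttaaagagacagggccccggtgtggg
Slc2a2 (chr2:113540120-113540419, plus strand): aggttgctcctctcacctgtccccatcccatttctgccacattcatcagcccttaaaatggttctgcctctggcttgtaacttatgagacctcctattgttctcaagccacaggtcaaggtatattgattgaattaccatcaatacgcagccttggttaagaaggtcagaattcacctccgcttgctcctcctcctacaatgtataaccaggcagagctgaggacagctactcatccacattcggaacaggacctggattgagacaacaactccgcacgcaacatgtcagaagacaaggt
The Pklr window held such a pair, with half-sites at −168 to −163 and −157 to −152 relative to the start. The pair is rare, present in 0.0717% of 33469 windows, or 24 windows. Arrdc4 held the E-box at −177 to −172, and 6.42% of all windows held it somewhere in their length. Any half-site occurred in 26.1% of windows, and Slc2a2 and Slc2a1 had none. A match describes letters only, and its absence from 300 bases says nothing of sites farther away.

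**Figure D1:**
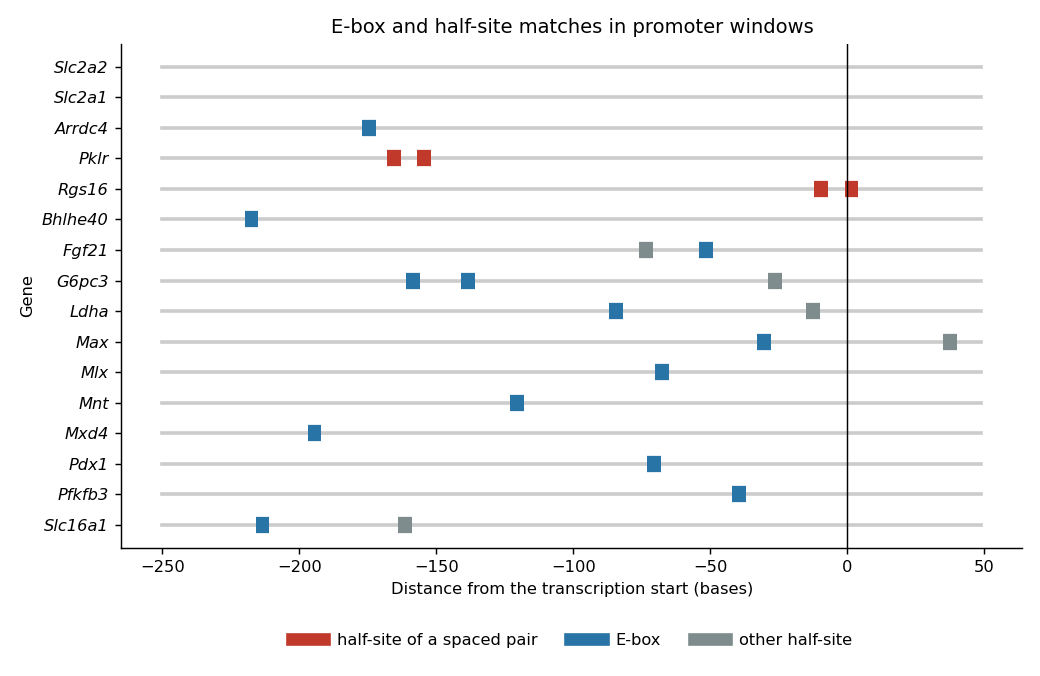
Half-site matches in promoter windows: each line is the window of 1 gene, the x axis is the distance from the transcription start in bases, and blocks are half-sites of a spaced pair (red), E-boxes (blue) and other half-sites (grey). Of the genes described here Pklr carries the pair, Arrdc4 an E-box and both transporters nothing. The other rows are Rgs16 and the listed genes with an E-box.

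In control cells Slc2a2 was by far the most abundant of the 5 genes per unit of length, at 509.7 ± 18.4 FPKM (mean ± SD, n = 3 here and below). Txnip followed at 90.4 ± 21.8 FPKM and Arrdc4 at 78.5 ± 3.14 FPKM, and their libraries overlapped. Pklr stood at 35.1 ± 1.63 FPKM and Slc2a1 at 20.5 ± 2.13 FPKM, each clear of its neighbours. Under PA, with or without C3G, the order became Slc2a2, Arrdc4, Pklr, Slc2a1 and Txnip, with no overlap between neighbours. Txnip thus moved from the second to the last place.

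The first comparison asked what palmitic acid did to these genes. Slc2a2, Txnip, Arrdc4 and Pklr fell, and Slc2a1 did not pass the test. The background was broad, since 25.2% of the 12958 genes tested were lower in PA at an adjusted p under 0.05 (edgeR's quasi-likelihood test, Benjamini-Hochberg adjustment over all genes tested). Every adjusted p below was obtained in this way unless another test or alternative settings are named. Against this 25.2%, 4 of 5 genes were lower. In addition 31.8% of all genes had every PA library below every BSA library, and the same 4 genes met that description. At a change of more than 2-fold with an unadjusted p under 0.05, the thresholds the study names without saying whether its p was adjusted, 4.26% of genes were lower, among them Slc2a2 and Txnip. The median log2 fold change of all genes was 0.0030. The genes and the lists below were chosen with earlier results of these data known. Their counts beside shares of all genes, in every comparison, are therefore descriptions and not tests.

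Slc2a2 (ENSRNOG00000011875, chromosome 2, 114413410 to 114445395, plus strand) had FPKM of 527, 490.1 and 512 in the BSA libraries. The PA libraries held 101, 107 and 99.99 FPKM, and the PA + C3G libraries held 168, 178 and 169 FPKM. The 3 groups formed separate bands, with PA lowest and PA + C3G between PA and BSA. PA brought the transcript to 20.2% of the BSA mean, a log2 fold change of −2.28 (SE 0.05, adjusted p = 5.41e-09), which ranked 85 from the lowest of all genes tested.

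Slc2a1 (ENSRNOG00000007284, chromosome 5, 138154673 to 138182897, plus strand) had 22.05, 18.1 and 21.4 FPKM in BSA libraries. Its PA libraries held 17.6, 18.3 and 17.7 FPKM and its PA + C3G libraries 18.2, 20.2 and 18.1 FPKM. The groups overlapped, and BSA replicate 2 lay within the range of the PA libraries. The log2 fold change of PA versus BSA was −0.18, with a 95% interval of −0.35 to −0.0049 and an adjusted p of 0.0804. Without BSA replicate 2 the change was −0.27 and passed the test (adjusted p = 0.00515, the lowest over 19 alternatives, of which the highest was 0.225). The interval does not reach a 2-fold change in either direction.

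**Figure D2:**
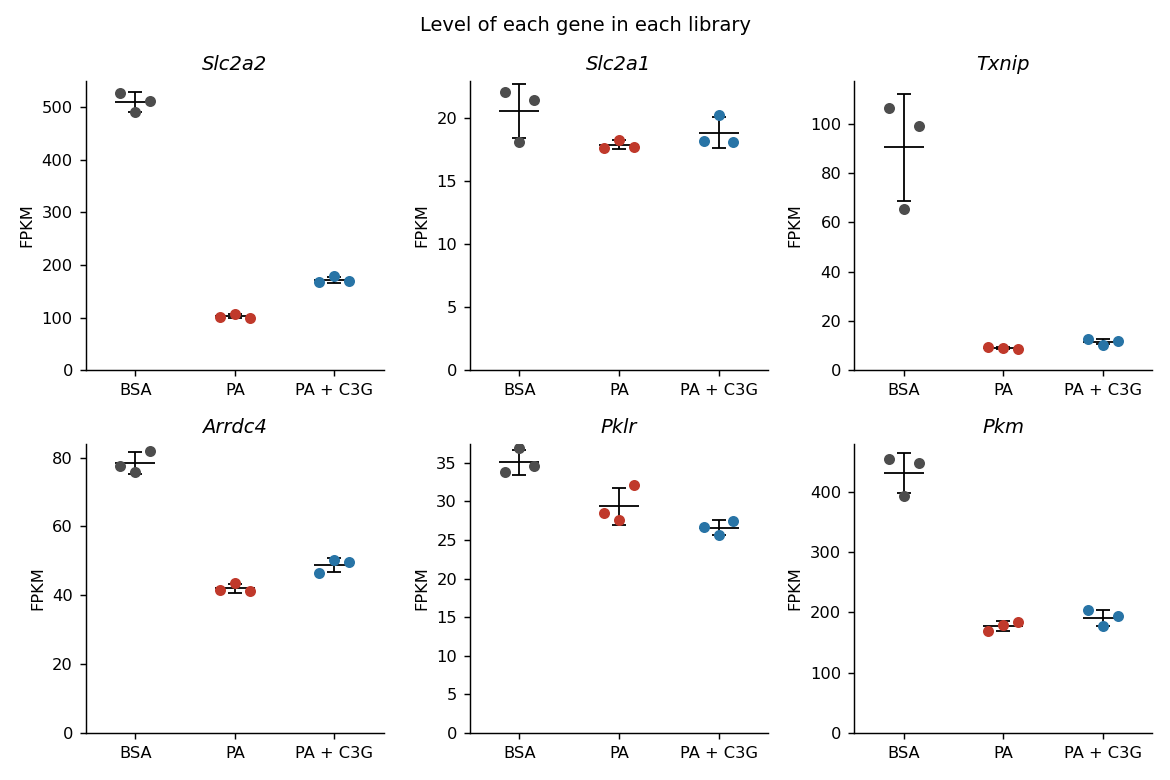
Level of each gene by library: the y axes give FPKM from 0, points are the 3 libraries of a group, and bars are the mean ± SD. Slc2a2, Txnip, Arrdc4 and Pkm drop from BSA to PA with clear space between the groups, Pklr drops less, and the Slc2a1 libraries overlap.

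Txnip (ENSRNOG00000021201, chromosome 2, 198683159 to 198686974, plus strand) had 106, 65.6 and 99.2 FPKM in BSA libraries. Its PA libraries held 9.50, 9.01 and 8.54 FPKM and its PA + C3G libraries 12.5, 10.4 and 11.7 FPKM. Both treated groups lay far below every control library, and BSA replicate 2 was the lowest control. Txnip fell 9.85-fold under PA (log2 fold change −3.30, SE 0.17, adjusted p = 2.92e-07) and ranked 19 from the lowest of all genes. Across the libraries left out in turn the log2 fold change ran from −3.49 to −3.18.

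Arrdc4 (ENSRNOG00000010775, chromosome 1, 129766100 to 129780356, minus strand) had 77.4, 75.9 and 82.0 FPKM in BSA libraries. PA libraries held 41.5, 43.5 and 41.2 FPKM, and PA + C3G libraries held 46.4, 50.4 and 49.7 FPKM. As for Slc2a2, the 3 groups did not overlap. Arrdc4 fell to 53.6% of the BSA mean under PA (log2 fold change −0.88, SE 0.05, adjusted p = 3.99e-07).

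Pklr (ENSRNOG00000020420, chromosome 2, 188449210 to 188459592, plus strand) had 33.7, 36.9 and 34.6 FPKM in BSA libraries. PA libraries held 28.5, 27.5 and 32.1 FPKM, and PA + C3G libraries held 26.7, 25.6 and 27.5 FPKM. All treated libraries lay below all controls, and the PA + C3G libraries were the lowest. The fall under PA was 1.17-fold (log2 fold change −0.23, SE 0.06, adjusted p = 0.00842). Gene-level values do not separate the liver transcript of Pklr from the red cell transcript.

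Pkm (ENSRNOG00000011329, chromosome 8, 64481172 to 64502722, plus strand), taken as the partner of Pklr, had 455, 394 and 447 FPKM in BSA libraries. It held 169, 179 and 184 FPKM in PA libraries and 203, 177 and 194 FPKM in PA + C3G libraries. Both treated groups lay below every control library and overlapped each other. PA lowered Pkm to 41.1% of the BSA mean (log2 fold change −1.26, SE 0.07, adjusted p = 4.39e-07), a larger fall on the log2 scale than that of Pklr in the same libraries.

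The second comparison asked what C3G changed in cells that also received PA. Slc2a2 and Arrdc4 rose, and the other 3 genes did not pass the test. None of the 5 genes changed by more than 2-fold, the fold threshold that the study names. Among all genes 11.1% were higher and passed it, so 2 of 5 stands beside that share, and 15.5% had every PA + C3G library above every PA library, a description that Slc2a2, Txnip and Arrdc4 met. Over all genes 1436 were higher and 1316 lower, while scaling each library to the same FPKM sum gave 775 higher and 2525 lower.

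Slc2a2 rose 1.71-fold with C3G (log2 fold change 0.78, SE 0.04, adjusted p = 1.99e-05), from 20.2% to 33.7% of the BSA mean. Arrdc4 rose by less, with a log2 fold change of 0.25 (SE 0.05, adjusted p = 0.00525), and reached 62.2% of the BSA mean. Both passed under all 19 alternative settings, among them each library left out in turn.

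For Txnip the log2 fold change with C3G was 0.39 with a 95% interval of 0.04 to 0.74, and the adjusted p was 0.111. All 3 PA + C3G libraries were above all 3 PA libraries, yet the means, 11.5 ± 1.05 and 9.02 ± 0.476 FPKM, were 12.8% and 9.97% of the control mean. The spread shared by the groups includes the wide BSA libraries, whose coefficient of variation was 24.1%. Fitting only the compared groups gave an adjusted p of 0.0221, and leaving out BSA replicate 2 gave 0.00764, within a range of 0.00764 to 0.265 over 19 alternatives.

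Pklr went the other way from Slc2a2 and Arrdc4. Its log2 fold change with C3G was −0.11 (95% interval −0.24 to 0.03, adjusted p = 0.240). The highest PA + C3G library, at 27.49 FPKM, lay only just below the lowest PA library, at 27.52 FPKM. Under scaling to equal FPKM sums it passed the test as lower (−0.20, adjusted p = 0.0375, the lowest of 19 alternatives, of which the highest was 0.648). Slc2a1 changed by 0.11 on the log2 scale with overlapping libraries (95% interval −0.06 to 0.28, adjusted p = 0.340). Pkm changed by 0.14 (95% interval −0.0070 to 0.29, adjusted p = 0.166).

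**Figure D3:**
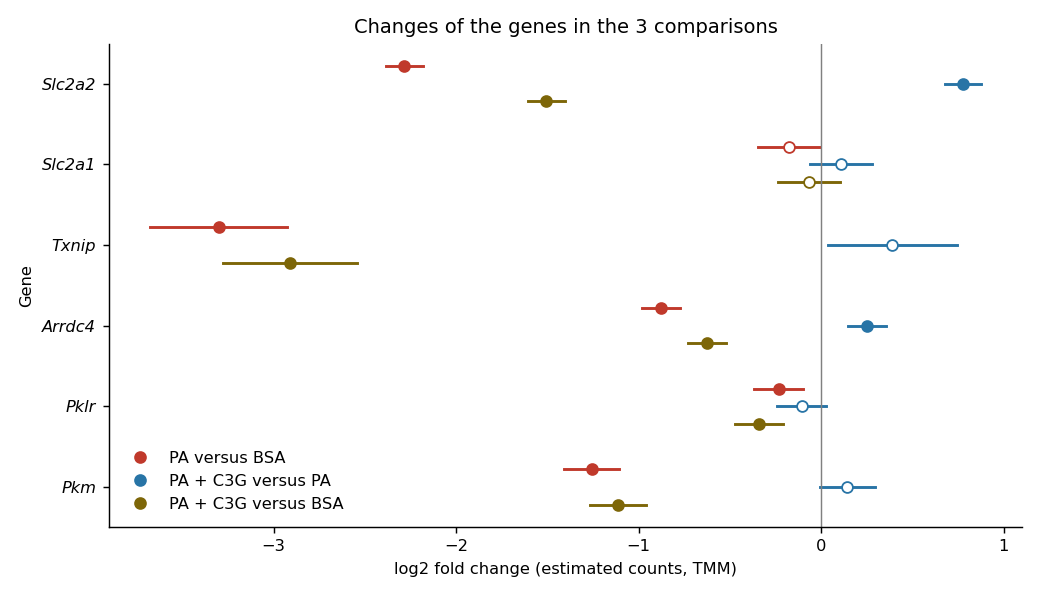
Log2 fold changes of the genes in the 3 comparisons: points are estimates from edgeR on estimated counts, lines are 95% intervals, filled points passed an adjusted p of 0.05 and open points did not. Slc2a2 and Arrdc4 lie right of 0 for PA + C3G versus PA (blue) and left of 0 in both comparisons with BSA.

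The third comparison set PA + C3G cells against controls. Slc2a2, Txnip, Arrdc4 and Pklr were lower, 4 of 5 against 17.9% of all genes, and the same 4 had every PA + C3G library below every BSA library, against 31.1% of all genes. Slc2a2 remained 2.84-fold lower (log2 fold change −1.51, adjusted p = 7.41e-08). Txnip remained 7.51-fold lower (−2.91, adjusted p = 1.26e-06) and ranked 15 from the lowest of all genes. Arrdc4 was 1.54-fold lower (−0.62, adjusted p = 6.81e-06) and Pklr 1.26-fold lower (−0.34, adjusted p = 0.00160). Slc2a1 did not pass (−0.06, 95% interval −0.23 to 0.11, adjusted p = 0.554). Each pair of comparisons shares the libraries of 1 group, so the 3 are not independent of each other.

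Ratios within a library do not depend on how libraries are scaled against each other. The ratio of Slc2a2 to Slc2a1 was 23.9, 27.1 and 23.9 in the BSA libraries, 5.75, 5.88 and 5.64 in the PA libraries and 9.27, 8.82 and 9.37 in the PA + C3G libraries. GLUT2 transcript therefore exceeded GLUT1 transcript in every library, by a margin that differed between groups without overlap (two-sided exact permutation test over 1680 divisions of the libraries, p = 0.00357, the smallest it can give; 0.00536 adjusted over 3 ratios).

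The ratio of Txnip to Arrdc4 was 1.37, 0.864 and 1.21 in BSA, 0.229, 0.207 and 0.207 in PA and 0.269, 0.206 and 0.236 in PA + C3G libraries. Both alpha-arrestins fell, but by unequal factors, and the ratio differed over the 3 groups (exact permutation p = 0.0143, also 0.0143 after adjustment). PA + C3G and PA libraries overlapped in this ratio (exact permutation p = 0.4 over 20 divisions).

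The ratio of Pklr to Pkm moved upward, from 0.0742, 0.0938 and 0.0774 in BSA to 0.168, 0.154 and 0.174 in PA libraries. In PA + C3G libraries it was 0.131, 0.145 and 0.142, between the other groups and overlapping neither. The 3 groups differed by the same exact permutation test (p = 0.00357, adjusted 0.00536). With 3 libraries against 3, the exact permutation test of a single pair cannot go below 0.1, the value reached by every pair of groups in every ratio other than the one named above.

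**Figure D4:**
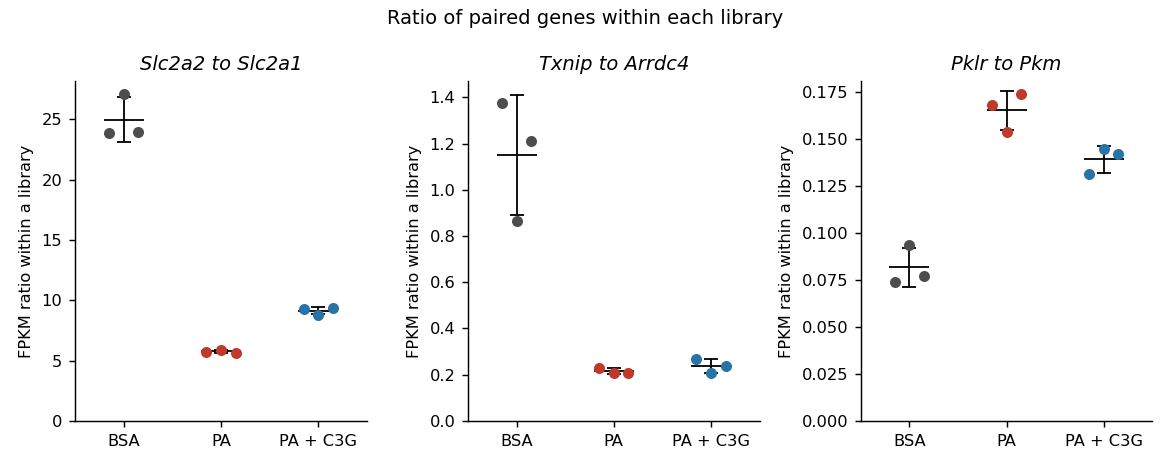
FPKM ratio of paired genes within each library: y axes start at 0, points are libraries, bars are the mean ± SD of 3. Slc2a2 to Slc2a1 is highest in BSA and lowest in PA, Txnip to Arrdc4 is near 0.2 in both treated groups, and Pklr to Pkm is highest in PA.

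The other genes of the SLC2 transporter family included several of low level. Of 8 further Slc2a genes with a row, 3 were below the filter, among them Slc2a4 (GLUT4) at 1.29 to 1.52 FPKM in BSA and at most 0.542 FPKM in any treated library. Of the 5 tested, 1 was lower in PA (Slc2a5, a fructose transporter, log2 fold change −0.63, adjusted p = 0.0310), against 25.8% higher and 25.2% lower among all genes. Slc2a5 averaged 3.20 FPKM in BSA, 2.03 in PA and 4.41 in PA + C3G, and rose with C3G by 1.15 on the log2 scale (adjusted p = 0.00528). Its fall under PA was lost on leaving out BSA replicate 2, PA replicate 1 or PA replicate 3, and when BSA, PA alone were fitted. The median log2 fold changes of the 5 were −0.01 and 0.19 in the first and second comparison (0.02 and 0.10 with libraries scaled to equal FPKM sums).

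Of 22 symbols listed for the steps around glucose phosphorylation and pyruvate, 5 were below the filter and 4 had no row. Hk2 and Hk3 were below the filter and Hk1 and Hkdc1 had no row, so the 13 genes tested included no hexokinase gene. Of these 13, 6 were lower and 2 higher under PA, beside 25.2% lower and 25.8% higher over all genes, with a median log2 fold change of −0.18. Gpd2, the mitochondrial glycerol phosphate dehydrogenase of the NADH shuttle, fell by 0.98 on the log2 scale (adjusted p = 3.68e-06) and rose by 0.37 with C3G (adjusted p = 0.00748). Pc, pyruvate carboxylase, fell by 0.63 (adjusted p = 2.55e-05), and its rise of 0.24 with C3G (adjusted p = 0.0247) was lost under 8 of 19 alternatives.

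The other genes lower in PA were Pkm, Pfkl, Pfkfb3 and Pfkfb2, and the 2 higher ones were Pfkm and Slc16a1, the monocarboxylate transporter MCT1. Slc16a1, which beta cells normally hold low, averaged 5.60 FPKM in BSA, 8.34 in PA and 5.21 in PA + C3G. It rose under PA (0.60, adjusted p = 0.00120) and fell with C3G (log2 fold change −0.64, adjusted p = 0.00342). Ldha, the other gene kept low in beta cells, did not exceed 0.0473 FPKM in any library. With C3G 2 of the 13 were higher (Gpd2 and Pc) and 2 lower (Slc16a1 and Pfkp), with a median of 0.12 (0.03 with libraries scaled to equal FPKM sums) beside 11.1% higher and 10.2% lower over all genes. The 2 higher genes became 1 when libraries were scaled to equal FPKM sums and without any 1 PA library or PA + C3G replicate 2 or 3. They also became 1 with limma in place of edgeR, on log2(FPKM + 1) or log2(FPKM + 0.1). The 2 lower genes became 1 without PA replicate 1 or 3 or without PA + C3G replicate 2 or 3.

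ChREBP acts within a network of related factors that includes the Mondo and Max proteins. Mlx, the obligate partner, stood at 42.8, 46.2 and 45.5 FPKM in BSA, PA and PA + C3G, and its changes did not pass the test (log2 fold change 0.14 under PA, adjusted p = 0.0956). Mlxip, which encodes the related factor MondoA, stood at 10.8, 10.9 and 9.82 FPKM (0.03 under PA, adjusted p = 0.814). Of 11 genes of the Mondo and Max network, 4 were higher and 1 lower in PA, and 4 were lower and 0 higher with C3G, with medians of 0.16 and −0.14 (0.19 and −0.23 at equal FPKM sums). Over all genes 25.8% were higher and 25.2% lower in PA, and 11.1% higher and 10.2% lower with C3G. Without BSA replicate 1 the 4 higher under PA became 2, and without PA replicate 3 the 4 lower with C3G became 1 (2 without PA replicate 2 or PA + C3G replicate 1 or 3). DESeq2, counts divided by 4 and leaving out PA + C3G replicate 3 each called 1 of the 11 higher with C3G, and edgeR's unadjusted p was under 0.05 for 1.

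Mnt, a Max-binding repressor, rose under PA (0.45, adjusted p = 2.02e-05) and fell with C3G (−0.19, adjusted p = 0.0131). Myc fell with C3G (−0.65, adjusted p = 0.000329), from 43.5 to 26.9 FPKM, and its change under PA did not pass (0.16, adjusted p = 0.0788). Mycn was the 1 lower gene under PA (−0.80, adjusted p = 0.000624).

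Other genes known as ChREBP targets in liver or islet did not move one way. Under PA 7 of 15 tested were higher and 4 lower, with a median of −0.05, beside 25.8% higher and 25.2% lower over all genes. The higher ones included the lipogenic Scd2, a stearoyl-CoA desaturase, at 464, 1062 and 813 FPKM in BSA, PA and PA + C3G (log2 fold change 1.22, adjusted p = 1.13e-08). Fasn, fatty acid synthase, likewise rose under PA (1.03, adjusted p = 2.29e-08). The other higher ones, by log2 fold change, were Bhlhe40 (0.78), Fgf21 (0.67), Khk (0.62), Acaca (0.24) and Tkt (0.18). The lower ones were Klf10, Rgs16, Acly and Gpd1. Elovl6, which did not pass, was listed at 0 FPKM in PA replicate 2 and at 3.63 and 3.39 FPKM in PA replicates 1 and 3. Without PA replicate 2 the 7 higher genes became 8. The 4 lower genes became 5 without BSA replicate 3, without PA replicate 1 or with a block for the replicate number.

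Klf10, a glucose-induced zinc finger repressor, fell by 1.19 on the log2 scale (adjusted p = 7.31e-07) and rose by 0.52 with C3G (adjusted p = 0.00113). Rgs16, a regulator of G protein signalling and the 1 listed gene besides Pklr with a spaced pair in its window, averaged 57.2, 30.8 and 38.2 FPKM in the 3 groups. It fell by 0.87 under PA (adjusted p = 0.000160), and its change of 0.35 with C3G did not pass (adjusted p = 0.0570). Acly, ATP citrate lyase, fell by 0.43 (adjusted p = 6.69e-06). Gpd1, the cytosolic glycerol phosphate dehydrogenase, fell by 0.40 under PA (adjusted p = 0.00161) and rose by 0.87 with C3G (adjusted p = 0.000170).

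With C3G the 15 genes split into 3 higher and 5 lower, with a median of 0.06, beside 11.1% higher and 10.2% lower over all genes. Scd2 and Fasn each fell by 0.35 (adjusted p = 0.000187 for both). The 5 became 3 without PA replicate 1 or 3 or without PA + C3G replicate 3. The median turned to −0.03 when libraries were scaled to equal FPKM sums.

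**Figure D5:**
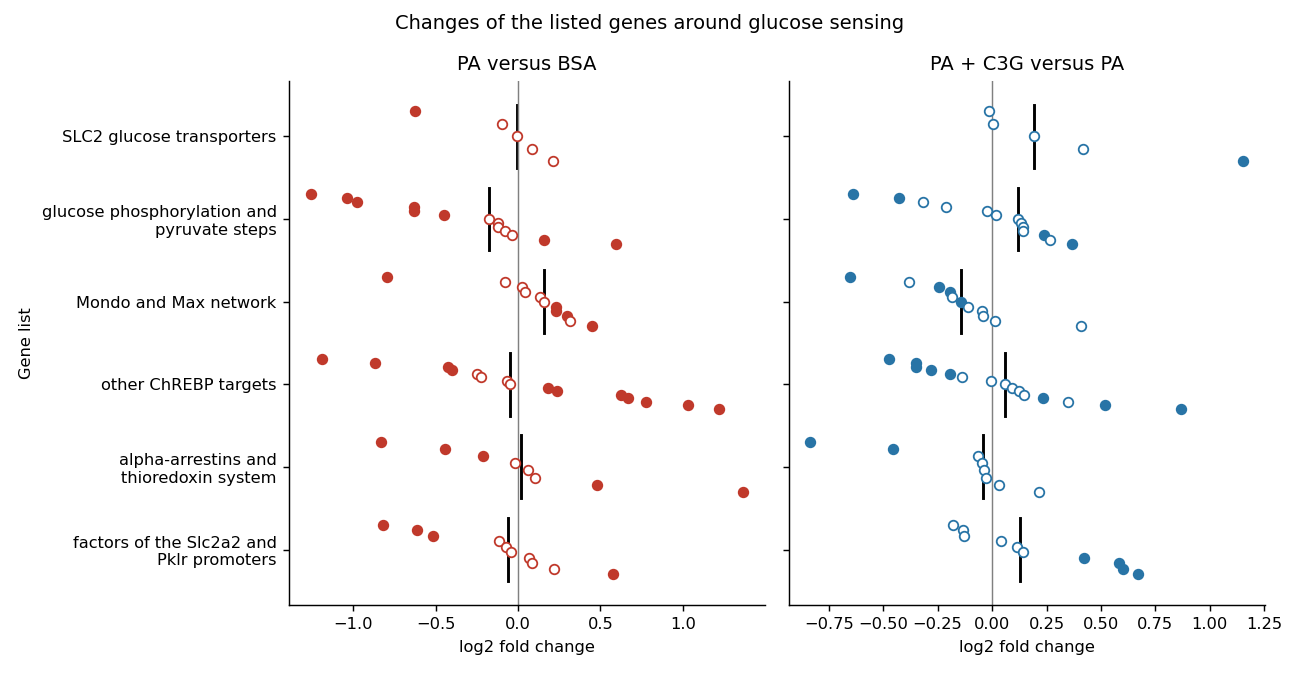
Changes of the listed genes: each point is 1 gene, the x axis is its log2 fold change, filled points passed an adjusted p of 0.05, and black bars are list medians. The left panel is PA versus BSA, where 6 of 13 genes of the glucose phosphorylation and pyruvate list are filled left of 0, and the right panel is PA + C3G versus PA.

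Relatives of Txnip and Arrdc4 gave a mixed picture. Of 8 alpha-arrestin and thioredoxin system genes tested, 2 were higher and 3 lower under PA, and 0 were higher and 2 lower with C3G, with medians of 0.02 and −0.04 (0.05 and −0.13 at equal FPKM sums). The shares over all genes were 25.8% higher and 25.2% lower under PA, and 11.1% and 10.2% with C3G. By edgeR's unadjusted p under 0.05 and by DESeq2 0 were likewise higher with C3G. Arrdc3, an alpha-arrestin of the same family, averaged 10.4, 5.73 and 4.07 FPKM in BSA, PA and PA + C3G and fell under PA (−0.83, adjusted p = 0.000596). Its further change with C3G was −0.46 (adjusted p = 0.0379) and was lost under 8 of 19 alternatives, among them the omission of any PA or PA + C3G library or of BSA replicate 1. Arrdc1 and Arrdc2 did not pass the test in the 3 comparisons.

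The thioredoxin reductases differed in direction. Txnrd3 rose under PA (1.37, adjusted p = 1.23e-05) and fell with C3G (−0.83, adjusted p = 0.00175), at 3.59, 9.11 and 4.98 FPKM in the 3 groups. Txnrd2, the mitochondrial form, also rose under PA (0.48, adjusted p = 0.000144), and the cytosolic Txnrd1 fell (−0.21, adjusted p = 0.00607). Txn1, the thioredoxin that Txnip binds, fell by 0.44 (adjusted p = 0.00452).

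Factors known to act on the Slc2a2 or Pklr promoters included Pdx1, Mafa and Hnf4a, which fell under PA and rose with C3G. Of 10 tested, 3 were lower and 1 higher under PA, and 4 were higher and 0 lower with C3G, with medians of −0.06 and 0.13 (−0.03 and 0.04 at equal FPKM sums). Beside these stand 25.2% lower and 25.8% higher under PA, and 11.1% higher and 10.2% lower with C3G, over all genes. By edgeR's unadjusted p under 0.05 and by DESeq2 0 were likewise lower with C3G. Pdx1, a homeobox factor of the beta cell, averaged 254, 163 and 253 FPKM in the 3 groups, falling by 0.61 under PA (adjusted p = 0.000677) and rising by 0.67 with C3G (adjusted p = 0.00199). Mafa fell by 0.82 (adjusted p = 0.000330) and rose by 0.60 (adjusted p = 0.00791). Hnf4a fell by 0.52 (adjusted p = 0.00190) and rose by 0.42 (adjusted p = 0.0160), and this rise was lost without PA + C3G replicate 3.

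Nr2f1 was the 1 higher gene under PA (0.58, adjusted p = 0.000890). Nkx6-1 was the fourth factor higher with C3G (0.58, adjusted p = 0.0122), which was lost without PA replicate 3. Pdx1, Mafa and Nkx6-1 are also among the beta cell markers given above.

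The genes whose log2 FPKM over the 9 libraries was most like each member were found among 12792 genes, by Pearson's r. The libraries share 3 treatments, so r mainly tracks the 3 group levels and is given as a description. For Slc2a2 they were Pbk (0.998), E2f8 (0.998) and Kntc1 (0.997). Pbk averaged 24.1, 3.09 and 5.79 FPKM in BSA, PA and PA + C3G, the same rank order of groups as Slc2a2. For Txnip they were Kif18a (0.999), Cand1 (0.998) and Kif23 (0.998).

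For Arrdc4 the nearest genes were Smc3 (0.999), Hirip3 (0.998) and Dhx9 (0.998), and for Pklr they were Stard7 (0.990), Xrcc6 (0.974) and Fv1 (0.970). Slc2a1 had no gene above the r of 0.945 found for Dlc1, followed by Gpatch2 (0.942) and Fsd1l (0.925). Between the genes described here r was 0.992 for Slc2a2 with Arrdc4, 0.969 for Slc2a2 with Txnip and 0.295 for Slc2a1 with Pklr. Txnip and Pkm had an r of 0.996.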

How the data were processed

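RNA-seq of 9 INS-1E libraries was used, 3 each from BSA, PA and PA + C3G cells. Per the labels, polyadenylated RNA was selected and strand-marked libraries were made. The submitters' processing notes name cutadapt 1.9, HISAT2 2.0.4, StringTie 1.3.4d, DESeq2 and edgeR. The genome build of the table is not given in the sources used here. The authors deposited estimated counts per gene, without normalization, and FPKM, scaled to gene length and library size. Low counts piled up at multiples of 4 (4044 values at 4, 2040 at 3), so counts divided by 4 were tried as an alternative.

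Estimated counts, which are whole numbers in the table, were tested with edgeR 4.0.16 in R 4.3.3 (quasi-likelihood test, TMM, all 9 libraries in 1 fit, group as the term) for the 12958 genes with a mean of at least 1 FPKM, with Benjamini-Hochberg adjustment and a threshold of 0.05. Fold changes come from this fit, and levels and within-library ratios come from FPKM. The members and lists were chosen with earlier results of these data known. Named were the members with Pkm, up to 4 genes of a list by smallest p, genes that a count needed, the 3 genes most like each member, and markers. Mlx, Mlxip, Slc2a4, Ldha, Txn1, Arrdc1 and Arrdc2 were named after their values were seen. Of the genes set out for the lists, 2 are not reported here. Script steps were tested on simulated data. Other settings tried were limma 3.58.1 on log2(FPKM + 1) and on log2(FPKM + 0.1), DESeq2 1.42.0, size factors from median ratios, libraries scaled to equal FPKM sums (TPM scaling), a filter at 5 FPKM or none, a fit of the compared groups alone, a block for the replicate number, division of the counts by 4, and omission of each library.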

Additional observations from a re-analysis of the deposited data

How the results depend on the processing

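Over 19 alternatives, 281 of 285 recomputed changes of the 5 genes kept their direction and their side of the threshold, 4 newly passed it and 0 lost it or reversed. The 4 were Slc2a1 in PA versus BSA without BSA replicate 2, Txnip in PA + C3G versus PA with only the compared groups or without BSA replicate 2, and Pklr in PA + C3G versus PA under TPM scaling. The number of the 5 genes lower in PA + C3G versus PA was thus 1 under TPM scaling and 0 otherwise. With a library left out, 4 to 5 of the genes passed in PA versus BSA and 2 to 3 in PA + C3G versus PA, always 4 in PA + C3G versus BSA. Over all genes, PA + C3G versus PA was the comparison that moved. TPM scaling gave 775 higher and 2525 lower genes in place of 1436 and 1316, and shifted the median log2 fold change to −0.09. Leaving out a library gave 1718 (without PA replicate 3) to 2838 genes past the threshold in place of 2752, with 921 to 1474 higher and 797 to 1364 lower. Same-numbered libraries did not deviate together (r of −0.0918 to 0.0796, and −0.0722 to 0.0937 for other pairs). Of 9 libraries, 2 were closest to their own number in both other groups. The labels do not say whether a number marks a shared culture or day, and this was not tested. With the number as a replicate block, 6843, 3118 and 5058 genes passed in the 3 comparisons in place of 6614, 2752 and 4783, and the block changed no call of the 5 genes but moved the other ChREBP targets higher in PA + C3G versus PA from 3 to 5. The fewest estimated counts behind a library's value were 2219 for Slc2a1 and 1296 for Txnip.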

Other observations

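The spaced pair of half-sites marked in the Pklr window occurred in the windows of 24 genes, of which 16 were tested. This set was defined by sequence after the members had been examined. The 16 include Pklr and Rgs16, both described above, so their calls are counted again here. Under PA 7 of the 16 were lower, Pklr and Rgs16 among them, and 3 higher, against 25.2% and 25.8% of all genes tested. With C3G 4 were higher and 2 lower relative to PA, against 11.1% and 10.2% of all genes. Relative to BSA 2 were higher and 4 lower, again with Pklr and Rgs16 among the lower, against 19.0% and 17.9%. Named after their values were seen, Il4i1, an amino acid oxidase, fell by 1.13 under PA (log2 scale, edgeR adjusted p = 9.02e-05), and Irak1, an interleukin receptor kinase, rose by 0.44 (adjusted p = 2.81e-06). Nup62, a nuclear pore protein, fell by 0.51 (adjusted p = 9.73e-07) and rose by 0.22 with C3G (adjusted p = 0.00146). Hes1, a repressor downstream of Notch, fell by 0.51 (adjusted p = 0.00612) and rose by 0.41 with C3G (adjusted p = 0.0397). The E-box occurred in the windows of 11 of 65 listed genes, beside 6.42% of all windows. Any half-site occurred in 33 of them, beside 26.1% of all windows. The lists were chosen by hand and include known ChREBP targets, and the difference from all windows was not tested.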
